A study of Mus musculus with 16 samples.

Results

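The array carried 736 probes against noncoding regions of mouse chromosome 11, out of 55681 probes in all. They were taken as every probe, controls left out, whose design name places it on that chromosome (genome build mm9). Each design name is an interval with a strand letter, F or R, as the array design writes it. The 736 probes, 356 on strand F and 380 on strand R, belong to 134 distinct intervals. Intervals that overlap on either strand were counted once, which gave 82 loci, numbered 1 to 82 along the chromosome.

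RNA came from retina and retinal pigment epithelium (RPE), extracted as a single sample, of mice carrying the nm3342 mutation and of wild-type mice, with 4 mice per group and 1 array per mouse. The 4 groups were mutant and wild type at 1 month (postnatal day 30) and mutant and wild type at 1 year. All were labelled as C57Bl/6J and male, and the title proposes the mutant for the study of serous retinal detachment, a lifting of the retina from the RPE by fluid. Which gene carries the mutation is not stated, and no transcript could therefore serve to check the genotypes. The comparison asks how noncoding transcription along the chromosome differs between the genotypes at each age, and with age within each genotype.

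Long noncoding RNAs are transcripts without a known protein product, made from their own promoters, from the strand opposite a gene, or from the stretch beyond a gene's end. Many are present at lower levels than messenger RNAs and in fewer cell types, and in the retina some are known to mark or to influence the formation of photoreceptors. The RPE, which lies against the photoreceptors, supports them and moves fluid out of the space between the tissues. A probe reads only the short stretch it matches, so probes within an interval can report different transcripts, and a strand letter separates transcripts that run in opposite directions.

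Levels are given on a log2 scale on which 0 is the 75th percentile of the same array. Differences are given between groups for the same probe. The 75th percentile of the arrays lay between 602.7 and 993.3 intensity units, and 528 to 631 of the 736 probes were well above background per array, by the scanner software's own mark. All 12 retina markers examined were well above background on all 16 arrays, as were the 7 RPE markers tested of 8 (such as Rpe65, an enzyme of the visual cycle). On 3 arrays, all of mutants (2 of 4 at 1 month and 1 of 4 at 1 year), Xist and Ddx3y went against the labelled sex. Genotype calls that were not made without those 3 arrays are named as such. Of the 12 retina markers, 2 rose in mutants at 1 month and none was called at 1 year. They were Grm6 (0.54, limma adjusted p = 0.0302) and Rlbp1 (0.58, adjusted p = 0.0142). Neither was called without those 3 arrays (adjusted p = 0.413 and 0.221).

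Other cell types also moved with genotype. The summed linear level of 5 microglia markers, in multiples of the array's 75th percentile, was 9.39 to 10.5 in 1-month mutants against 5.43 to 6.25 in 1-month wild types, and 2 of the 5 (Aif1 and Csf1r) rose. That of the 7 RPE markers was 166 to 231 against 93.5 to 141, and 2 of the 7 (Ttr and Slc16a8) rose. At 1 year no marker of either list was called, with microglia sums of 11.7 to 13 in mutants and 8.49 to 11.6 in wild types, and RPE sums of 146 to 197 and 154 to 211. The 6 lens markers spanned 88.2 to 1440 in 1-month mutants and 628 to 884 in 1-month wild types, with none called. Of 5 muscle markers Acta1 rose at 1 month, and their sum was 14.6 to 30.6 in mutants and 5.85 to 12.9 in wild types. The 3 erythrocyte markers tested (10.9 to 184 against 2.91 to 11) and the 4 cornea markers (13.7 to 123 against 18.3 to 148) had no call. At 1 year no lens, muscle, erythrocyte or cornea marker was called. Lens sums were then 9.2 to 748 in mutants and 1.62 to 102 in wild types. Muscle sums were 16.4 to 54.9 against 11.1 to 22.5, and erythrocyte sums 3.56 to 11.9 against 5.1 to 39.9. Cornea sums were 60.9 to 653 against 11.5 to 353. Apart from Mip, on 15 arrays, every tested marker of these 6 lists was well above background on all 16 arrays. Without the 3 arrays of unmatched sex pattern, Aif1 was the only marker of these lists still called at 1 month. Whether these differences have a part in the results below was not tested, and in bulk tissue fewer cells of a type and less RNA per cell cannot be told apart.

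Signal was found along the whole chromosome. Of the 736 probes, 473 were well above background on all 16 arrays, 147 on 4 to 15 arrays, 59 on 1 to 3 arrays and 57 on none. The 620 probes above background on at least 4 arrays were tested, 84.2% of the members against 84.1% of the region probes on other chromosomes and 88.4% of all probes. The loci cover 1547009 bases, from 131 to 164222 bases each (median 11808.5), with 1 to 37 probes each. A probe was above background on all 16 arrays at 76 of the 82 loci. Of the 51 loci with probes on both strands, 47 had such a probe on each strand and 4 on strand R alone. In windows of 10 Mb, the share of probes tested ran from 70.8% (20 to 30 Mb) to 95.8% (110 to 120 Mb), and the densest window, 90 to 100 Mb, held 18 loci and 142 probes. The groups did not differ in detection beyond their spread: 570.8 ± 33.7 probes above background in 1-month mutants, 587 ± 32.3 in 1-month wild types, 570 ± 17.3 in 1-year mutants and 565 ± 37.9 in 1-year wild types (SD, n = 4).

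Genotype moved few of these loci, and the probes called at both ages lay in 4 of them. At 1 month, 27 of the 620 probes were called between mutant and wild type (limma, Benjamini-Hochberg adjusted p under 0.05 over all probes tested on the array), 7 higher and 20 lower in the mutant (over all probes tested, 0.762% were higher and 0.313% lower). That is 4.35% of the members, against 1.07% of all probes tested, 0.454% of region probes on other chromosomes and 3.53% of probes of named genes on chromosome 11. At 1 year 15 probes were called, 6 higher and 9 lower (over all probes, 0.274% and 0.126%), or 2.42% against 0.4%, 0.0923% and 1.54% in the same sets. The counts are of probes, and the 27 probes lie in 10 loci and the 15 in 4 loci, so many of the calls share a locus. Whether calls at a locus come from the same transcript was not tested. Of 80 loci tested, 12.5% had any probe called at 1 month and 5% at 1 year, against 1.64% and 0.338% of 2074 loci on other chromosomes.

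Counting each locus by its highest probe alone gave smaller numbers. At 1 month 2 of 80 loci were called (2.5%, against 0.434% on other chromosomes), both lower in the mutant, and at 1 year none was, with 7 loci at an unadjusted p under 0.05. Loci 48, 73, 39, 14 and 57 were chosen after their values were seen, because at them the highest probe was not among the probes that changed.

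**Figure D1:**
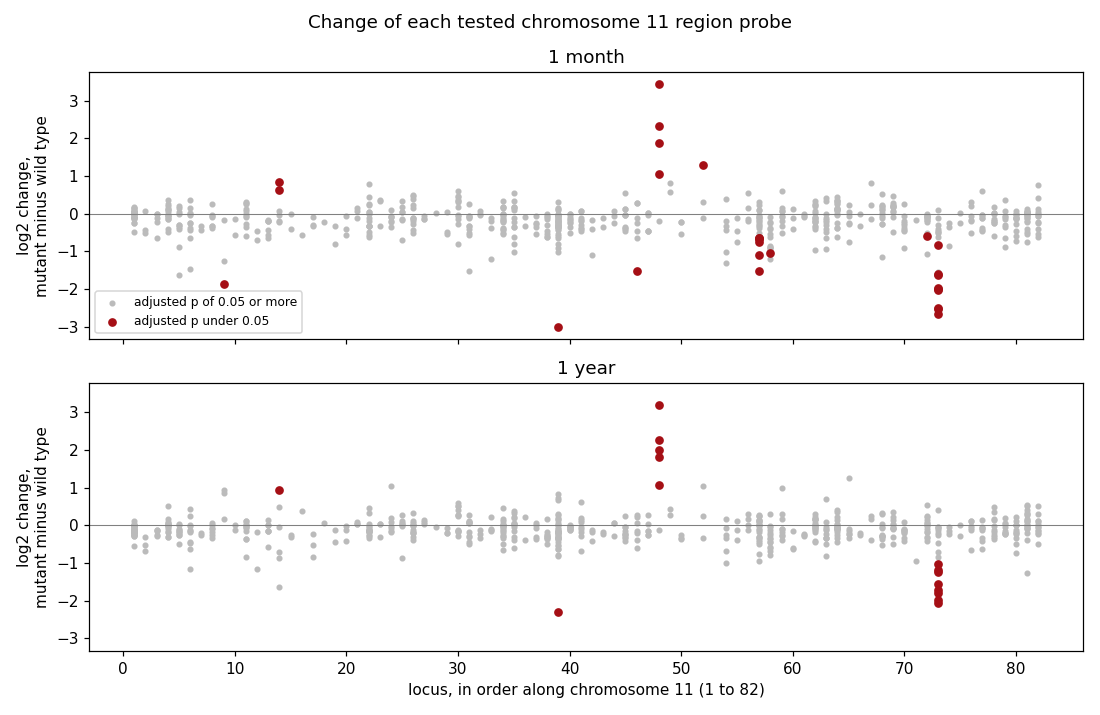
Log2 change (mutant minus wild type, vertical axis) of each of the 620 tested probes at 1 month (top) and 1 year (bottom), placed by locus number in order along the chromosome. Red points passed an adjusted p of 0.05: locus 48 stands above the rest at both ages, and locus 73 and a single probe of locus 39 stand below.

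Locus 48 (chr11:87872568-87880978, mm9) held the probes that rose most. All 4 of its strand R probes rose in mutants at both ages, by 2.08-fold to 10.8-fold at 1 month and 2.11-fold to 9.12-fold at 1 year. For A_30_P01024517 the wild-type levels at 1 month were -4.81, -4.63, -5.02 and -4.56, and the mutant levels were -1.29, -1.24, -1.39 and -1.34. At 1 year they were -4.76, -4.20, -4.50 and -5.41 in wild types and -1.61, -1.53, -1.52 and -1.45 in mutants. Every mutant lay above every wild type, and the gap was wider than the spread within any group. The change was 3.44 ± 0.19 (SE) at 1 month (limma adjusted p = 2.14e-07) and 3.19 ± 0.19 at 1 year (adjusted p = 5.94e-07).

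The other strand R probes of locus 48 moved the same way by less. A_30_P01017729 lay between -3.43 and -3.10 in 1-month wild types and between -1.07 and -0.94 in 1-month mutants, and went from -3.54 ± 0.12 to -1.26 ± 0.20 (SD, n = 4) at 1 year, with changes of 2.31 and 2.27. A_30_P01028884 changed by 1.87 and 1.81, and A_30_P01027229 by 1.05 and 1.08. In each of the 4 probes the groups of an age did not overlap, and the difference between the 2 ages' changes was at most 0.25 in size, with adjusted p of 0.95 or more.

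The opposite strand of locus 48 did not act as a unit. A_30_P01022796, on strand F, had wild-type levels of 1.07, 0.81, 0.91 and 0.74 and mutant levels of 0.53, 0.54, 0.60 and 1.09 at 1 month, which overlap. Its change was -0.19 (95% interval -0.51 to 0.12) at 1 month and -0.12 (-0.43 to 0.20) at 1 year. The other strand F probe, A_30_P01022597, was 1.01 ± 0.31 higher in 1-month mutants (adjusted p = 0.168) and rose 3.99-fold at 1 year (adjusted p = 0.00867, well above background on 3 of 4 wild-type and all 4 mutant arrays), a call that was not made without the arrays of unmatched sex pattern (adjusted p = 0.0741). The nearest other locus, 47 (chr11:87841800-87858725), ends 13842 bases before locus 48 and had no call among its 6 tested probes, with changes of -0.47 to 0.02 at 1 month. On the other side the next locus is 6113816 bases away.

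**Figure D2:**
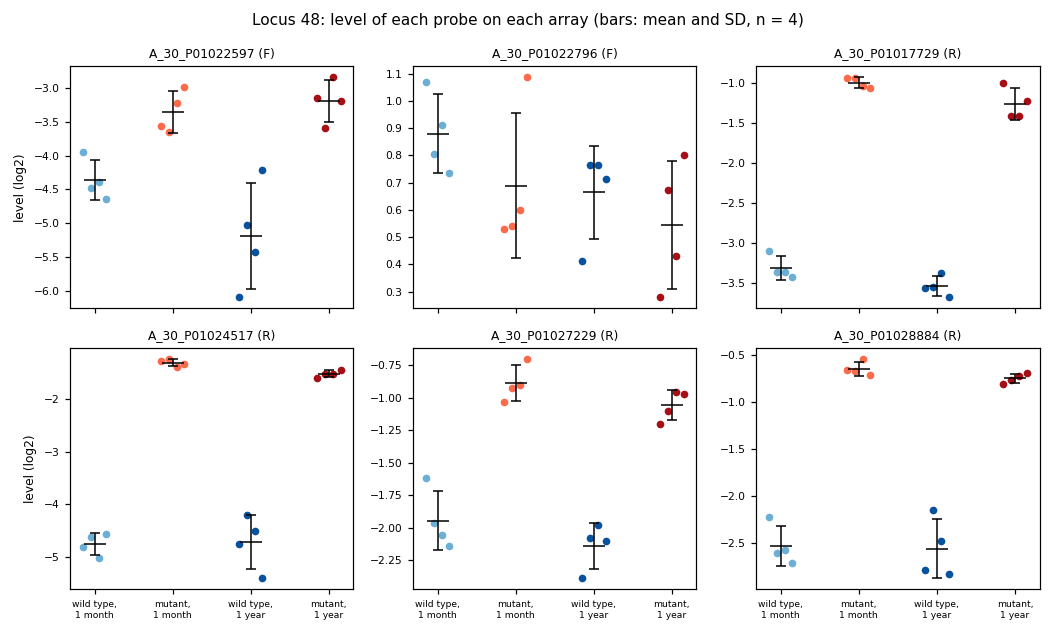
Level (log2, relative to the array's 75th percentile) of each probe of locus 48 on each of the 16 arrays, by group, with the mean and SD of 4 mice. The 4 strand R probes are higher in all mutants than in all wild types at both ages, while A_30_P01022796 on strand F overlaps between genotypes.

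Locus 73 (chr11:112898724-113062945) is the longest of the 82 and held the largest group of probes that fell. On strand R, 9 of its 11 probes fell in mutants at 1 month and 8 at 1 year, and on strand F none of 7 tested was called at either age. Of those 7, 6 were below 0 at 1 month, with a median of -0.48 (-1.54 to 0.09), and the median was -0.09 at 1 year (-0.83 to 0.42). Of the 8 strand F probes, 3 were well above background on all 16 arrays, as against all 11 on strand R. The 11 strand R changes had a median of -1.96 at 1 month and -1.25 at 1 year. For A_30_P01023065 the wild-type levels at 1 month were -1.45, -1.40, -1.60 and -1.39, and the mutant levels were -4.29, -3.69, -4.28 and -4.24. At 1 year they were -2.07, -2.21, -1.95 and -2.04 in wild types and -3.97, -4.33, -3.90 and -4.05 in mutants. All mutants lay below all wild types at both ages, a fall of 6.34-fold at 1 month (log2 change -2.66 ± 0.14, adjusted p = 7.2e-08) and of 3.99-fold at 1 year (-1.99 ± 0.14, adjusted p = 1.7e-06).

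Other strand R probes of locus 73 fell as well. A_30_P01018710 changed by -2.54 at 1 month and -2.05 at 1 year, A_30_P01031603 by -2.52 and -1.73, and A_30_P01026259 by -2.03 and -1.81. A_30_P01018956 changed by -1.99 and -1.55, A_30_P01018328 by -1.96 and -1.18, and A_30_P01032673 by -1.61 and -1.25. These probes and A_30_P01023065 were called at both ages, without overlap between genotypes. Within each slide, with 2 mice per genotype, A_30_P01018710 was lower in mutants by 2.53 to 2.55 at 1 month and by 1.85 to 2.26 at 1 year.

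The remaining strand R probes of locus 73 changed less. A_30_P01030983 fell by 1.63 at 1 month and by 1.02 at 1 year, where its adjusted p of 0.0405 rose to 0.203 without the arrays of unmatched sex pattern and to 0.427 with another background correction. That 1-year call was made in 3 of the 16 fits that left out an array. A_30_P01022817 fell by 0.84 at 1 month (adjusted p = 0.0159, and 0.284 without the arrays of unmatched sex pattern) and stood at -0.72 at 1 year (adjusted p = 0.0647). A_30_P01020019 and A_30_P01024034 were not called, at -0.47 and -0.31 at 1 month and -0.22 and -0.12 at 1 year, and on both the 1-month mutant replicate 4 was the highest of its group. All 11 probes share intervals ending at the same base, and the files do not place a probe within its interval. The neighbouring loci lie 8568899 and 1623375 bases away.

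Wild-type levels at locus 73 also fell with age in 3 strand R probes: by 0.59 in A_30_P01018328 (adjusted p = 0.00193), by 0.61 in A_30_P01023065 and by 0.58 in A_30_P01031603. In mutants the same probes changed with age by 0.20, 0.06 and 0.20, with no call. The difference between the ages' genotype changes was 0.78 ± 0.14 for A_30_P01018328, with an adjusted p of 0.0523, and did not pass. The age falls of A_30_P01023065 and A_30_P01031603 were not called after quantile normalization or in the authors' deposited log2 values (adjusted p up to 0.0714), nor without 1-year wild-type replicate 2 (0.0512) and replicate 1 (0.0527) respectively.

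**Figure D3:**
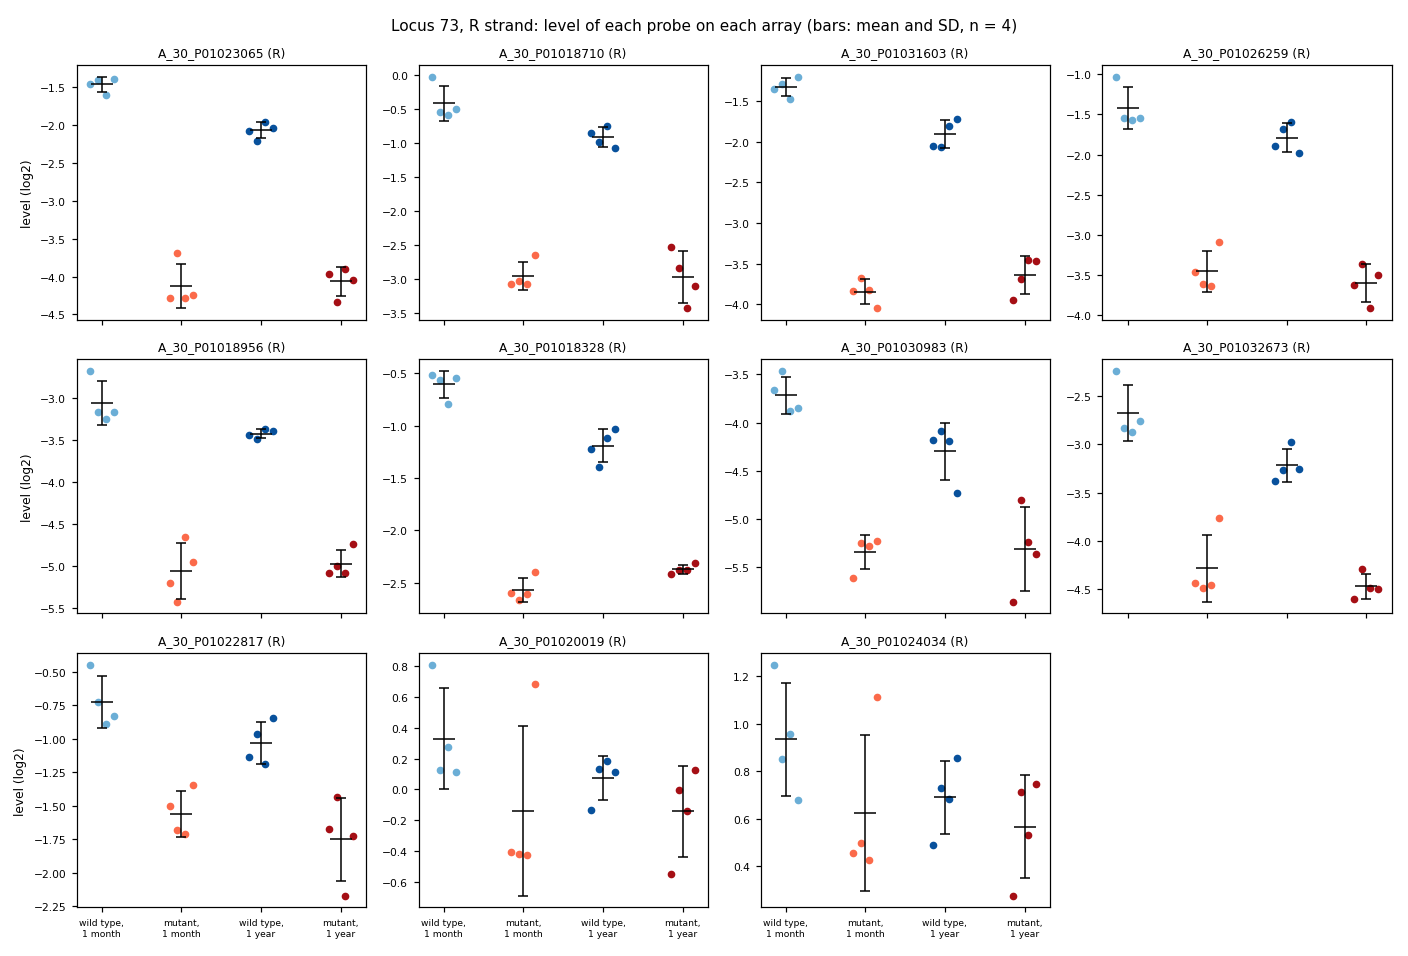
Level (log2, relative to the array's 75th percentile) of each strand R probe of locus 73 on each array, by group, with the mean and SD of 4 mice, ordered by the change at 1 month. In the first 9 panels all 1-month mutants lie below all 1-month wild types, and the last 2 panels overlap.

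Locus 39 (chr11:69184157-69201732) had the single largest fall, in 1 of its 37 probes. A_30_P01018348 (chr11:69196530-69197001, strand F) had levels of 0.69, 0.33, 0.17 and 0.07 in 1-month wild types and -2.67, -2.75, -2.55 and -2.83 in 1-month mutants. At 1 year the wild types were at -0.04, -0.12, -0.13 and 0.34 and the mutants at -0.62, -2.81, -2.90 and -2.81. Genotypes did not overlap, but 1-year mutant replicate 1 lay far above the other 1-year mutants. It is also the array of that group whose Xist and Ddx3y did not match the label. The change was -3.01 ± 0.38 at 1 month (adjusted p = 0.000973) and -2.29 ± 0.38 at 1 year (adjusted p = 0.0135). The 1-year change was -2.85 without that array, and the call was lost on leaving out any of the other 3 mutants (adjusted p up to 0.0658).

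The other probes of locus 39 did not follow. The 2 probes of the same interval and strand, A_30_P01023193 and A_30_P01024137, were at -0.21 and -0.24 at 1 month and at -0.16 each at 1 year, with overlapping groups. None of the other 36 probes of the locus was called at either age, and the median change of the locus was -0.23 at 1 month.

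Locus 14 (chr11:22659730-22707775) had 2 of its 5 strand F probes called, both higher in the mutant. A_30_P01025488 was at -4.70, -4.47, -4.08 and -4.57 in 1-month wild types and at -3.71, -3.79, -3.59 and -3.39 in 1-month mutants. It rose by 0.84 ± 0.15 at 1 month (adjusted p = 0.0175) and by 0.93 ± 0.15 at 1 year (adjusted p = 0.0118), without overlap at either age. A_30_P01025682 rose by 0.62 at 1 month (adjusted p = 0.0135) and stood 0.49 higher at 1 year (adjusted p = 0.0887). Without the arrays of unmatched sex pattern, no probe of locus 14 was called at either age, and A_30_P01025488 stood at 0.91 (adjusted p = 0.0872) and 0.83 (adjusted p = 0.0951). Its 1-month call was also lost without 1-month mutant replicate 3 or wild-type replicate 1 or 2 (adjusted p up to 0.0645), and its 1-year call without 1-year wild-type replicate 2 or 3 (adjusted p up to 0.058). Neither call was made with another background correction (adjusted p = 0.0963 and 0.127), nor the 1-month call with sex pattern as a covariate (adjusted p = 0.0781). The other 3 strand F probes lay below 0 with no call, at -0.05 to -0.22 at 1 month and -0.70 to -1.65 at 1 year.

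Loci 57 and 58 (chr11:95627874-95640824 and chr11:95644899-95658549), 4074 bases apart, held 7 of the 20 probes that fell at 1 month. At locus 57, all 9 strand R probes were below 0 at 1 month, with a median of -0.66 and 6 called. The 13 strand F probes ran from -0.32 to 0.31, with none called. The largest change was in A_30_P01029148, at -1.51 ± 0.33 (adjusted p = 0.0458) at 1 month and -0.94 at 1 year (adjusted p = 0.398). At 1 year no probe of either locus was called, and the strand R median of locus 57 was -0.40. At locus 58 the 7 tested strand R probes had a median of -0.90 and the 7 strand F probes of -0.61 at 1 month, so both strands lay below 0 there. The 6 calls at locus 57 numbered 7 and 5 without 1-month mutant replicate 3 or 4, and 0 to 2 without any other single array, the 1-year arrays included. They numbered 2 without the arrays of unmatched sex pattern and 1 with that pattern as a covariate.

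**Figure D4:**
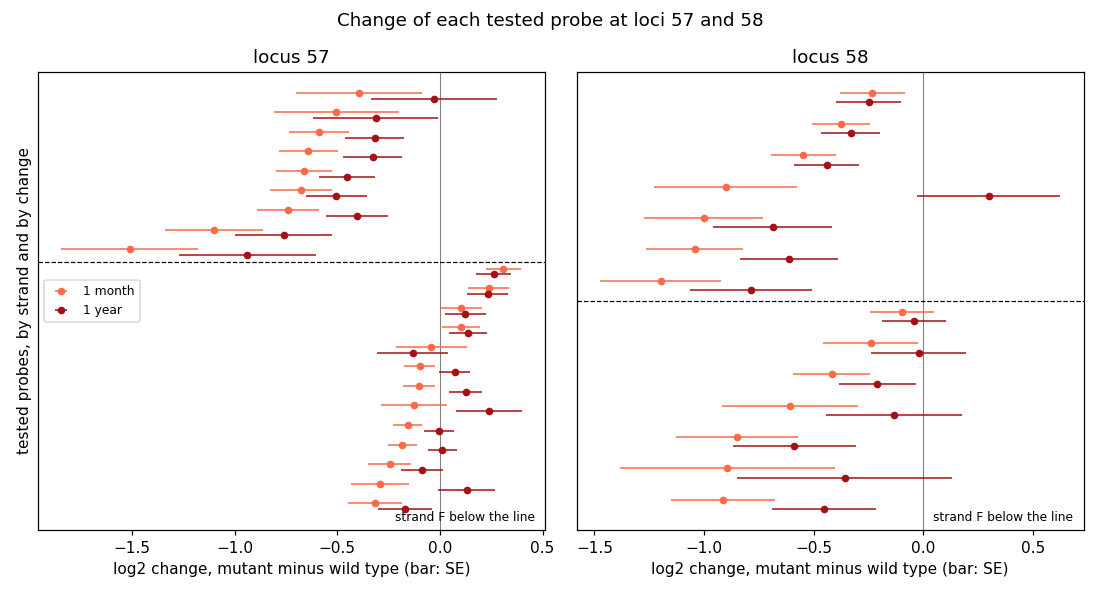
Log2 change (mutant minus wild type, horizontal axis) with its SE for each tested probe of locus 57 (left) and locus 58 (right), at 1 month (light) and 1 year (dark); strand R is above the dashed line and strand F below it. At locus 57 all 9 strand R probes are below 0 at 1 month and the 13 strand F probes lie on both sides of 0.

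By its highest probe, locus 58 was called at 1 month and in the average over both ages. A_30_P01030269 (chr11:95657291-95657772, strand R) was at 1.02, 0.58, 0.53 and 0.54 in 1-month wild types and at -1.02, -0.61, -0.19 and 0.31 in 1-month mutants. At 1 year the wild types were at 0.32, 0.18, 0.32 and 0.55 and the mutants at -0.06, -0.26, -0.50 and -0.26. All mutants lay below all wild types of their age, and 1-month mutant replicate 4 came closest. The change was -1.04 ± 0.22 at 1 month (adjusted p = 0.0367), -0.61 ± 0.22 at 1 year (adjusted p = 0.407) and -0.83 over both ages (adjusted p = 0.0168, and 0.109 without the arrays of unmatched sex pattern). At 1 month the adjusted p was 0.297 without those arrays, with a change of -1.02, and the call was made in 5 of the 16 fits that left out an array.

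The other locus called at 1 month by its highest probe was locus 46 (chr11:82588507-82594501). A_30_P01018164, on strand F, was at -0.58, -1.07, -1.05 and -1.36 in wild types and at -2.67, -2.86, -2.95 and -1.63 in mutants, a change of -1.52 ± 0.33 (adjusted p = 0.0414). Again 1-month mutant replicate 4 lay nearest the wild types. At 1 year its groups overlapped, with a change of -0.40, and the 1-month adjusted p was 0.457 without the arrays of unmatched sex pattern. This call too was made in 5 of the 16 fits that left out an array.

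Locus 63 (chr11:97457180-97487074) was called over both ages by its highest probe and higher in mutants. A_30_P01019507, on strand R, was at -0.61 ± 0.18 in wild types and -0.19 ± 0.23 in mutants at 1 month, and at -0.74 ± 0.16 and -0.05 ± 0.30 at 1 year (SD, n = 4). Its change over both ages was 0.56 ± 0.11 (95% interval 0.32 to 0.80, adjusted p = 0.0217). The call was lost with array row as a term (adjusted p = 0.07) and without 1-year mutant replicate 4, 1-month wild-type replicate 2 or 1-year wild-type replicate 3 (adjusted p up to 0.0536). Over both ages, 35 of the 620 probes were called (5.65%, against 1.21% of all probes), 12 higher and 23 lower (0.758% and 0.451% of all probes).

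Single probes of 3 further loci were called at 1 month. A_30_P01022181 of locus 52 (chr11:95113972-95114267, strand F) rose by 1.29 ± 0.28 (adjusted p = 0.0408) and stood 1.04 higher at 1 year. It was well above background on 3 of 4 1-year wild-type arrays and on all others. A_30_P01032517 of locus 72 (chr11:104304424-104329824, strand F) fell by 0.59. A_30_P01019623 of locus 9 (chr11:18753941-18760118, strand R) was well above background on all 4 wild-type and no mutant array at 1 month, at least 2.49-fold lower in mutants (adjusted p = 0.0316, measured means -4.94 and -6.79). At 1 year that probe was above background on 1 wild-type and all 4 mutant arrays, the opposite order, with a change of 0.92 (adjusted p = 0.496). The difference between its changes at the ages was 2.78 ± 0.54, with an adjusted p of 0.0772. None of these 3 calls was made without the arrays of unmatched sex pattern.

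The comparisons at the ages share no array, but they come from the same fit, with a spread per probe estimated over all groups together. A probe with a small spread is therefore favoured at both ages, and the lists of calls are not independent. Of the 27 probes called at 1 month and the 15 at 1 year, 14 were called at both in the same direction, 51.9% of the first list and 93.3% of the second. They are 4 strand R probes of locus 48, 8 strand R probes of locus 73, A_30_P01018348 of locus 39 and A_30_P01025488 of locus 14. Such probes made up 2.26% of members, against 0.173% of all probes, 0.0615% of region probes on other chromosomes and 0.845% of probes of named genes on chromosome 11. Without the arrays of unmatched sex pattern, 15 probes were called at 1 month (2.42%, against 0.246% of all probes) and 12 at 1 year (1.94%, against 0.209%), 12 of them at both. Over all probes, calls went from 529 to 121 at 1 month and from 197 to 103 at 1 year in the same fit.

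None of the 620 probes was called for a difference between the genotype changes at the ages (limma, smallest adjusted p 0.0523), with 22 at an unadjusted p under 0.05. Over all probes, 0.0833% were called. The 13 probes called at 1 month and not at 1 year are therefore not shown to differ between ages.

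**Figure D5:**
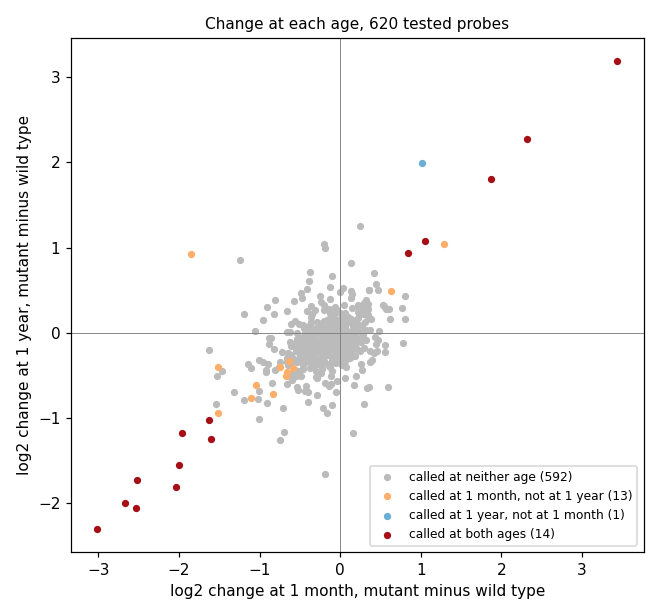
Log2 change at 1 month (horizontal axis) and at 1 year (vertical axis), mutant minus wild type, for the 620 tested probes, coloured by the ages at which they were called. The 14 probes called at both ages changed in the same direction on both axes, A_30_P01025488 least (0.84 and 0.93), and 592 probes were called at neither age. Some of the latter changed by more at 1 month, such as a probe of locus 5 at -1.62.

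Over all 620 tested members, the loci above included, changes lay slightly below 0, as those of region probes did elsewhere. The median change was -0.13 at 1 month and -0.12 at 1 year, against -0.12 and -0.11 for region probes on other chromosomes and -0.03 and -0.05 for all probes. This small shift depends on scaling and on the model. At 1 month 442 of 620 probes were below 0, but the median was -0.06 after quantile normalization. It was 0, with 310 probes below 0, after another background correction. With array row as a term it was larger, at -0.24 with 487 probes below 0, and at -0.21 with 482 at 1 year. Mutants and wild types were not spread evenly over the array rows. Genotypes did not overlap in 46 members at 1 month (7.42%) and 60 at 1 year (9.68%), against 6.51% and 6.54% of all probes, 3.58% and 4.57% of region probes on other chromosomes and 12.5% and 10.9% of probes of named genes on chromosome 11.

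With age, nearly every called probe in wild types was lower at 1 year. Called region probes on other chromosomes leaned the same way, with 210 lower and 110 higher. From 1 month to 1 year 15 of 620 probes were called in wild types (2.42%, against 5.69% of all probes and 2.46% of region probes on other chromosomes), 1 higher and 14 lower (3.3% and 2.39% of all probes). In mutants 5 were called (0.806%, against 2.78% and 0.953%), 1 higher and 4 lower (1.5% and 1.28% of all probes). Without the arrays of unmatched sex pattern, 10 were called in wild types (1.61%, against 3.81% of all probes) and none in mutants (0.453% of all probes). These shares of probes are at or below the background. By locus the shares were higher than on other chromosomes. Any probe was called at 15% of loci in wild types (against 9.06%) and at 6.25% in mutants (against 3.86%). Loci with more tested probes have more chances of a call, and 620 tested probes lay in 80 loci here, against 13005 in 2074 elsewhere. Neither that excess nor the difference in number between genotypes was tested.

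By highest probe, 4 of 80 loci were called with age in wild types (5%, against 3.13% on other chromosomes). In mutants 2 were called (2.5%, against 1.4%). A_30_P01018188 of locus 47 (chr11:87841800-87858725, strand F) fell from 3.13 ± 0.15 to 2.43 ± 0.11 (SD, n = 4), a change of -0.70 ± 0.09 (adjusted p = 0.000351). In mutants it went from 3.08 ± 0.12 to 2.71 ± 0.06, a change of -0.37 (adjusted p = 0.0463, and 0.518 without the arrays of unmatched sex pattern). A_30_P01020615 of locus 17 (chr11:31594719-31595201, strand F) fell by 0.84 in wild types (adjusted p = 0.00876) and by 0.74 in mutants (adjusted p = 0.03, and 0.201 without those arrays). These were the loci called in mutants as well, in 4 and 10 of the 16 fits that left out an array. The wild-type fall of A_30_P01020615 was not called with another background correction (adjusted p = 0.0527).

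The other loci were called by their highest probe with age in wild types alone, and these tests do not compare the genotypes. A different probe of locus 81, not its highest, was called lower at 1 year in mutants. A_30_P01027042 of locus 81 (chr11:120041124-120052299, strand R) was at 0.42, 0.19, 0.31 and 0.41 in 1-month and at -0.68, -0.65, -0.70 and -0.06 in 1-year wild types, a change of -0.85 ± 0.13 (adjusted p = 0.00107). Mutants were at -0.09 ± 0.10 and -0.00 ± 0.11, between the wild types of the ages. The difference between its genotype changes was 0.94 ± 0.18 and did not pass (adjusted p = 0.0863). A_30_P01019010 of locus 59 (chr11:96111499-96126224, strand R) rose by 0.60 ± 0.13 in wild types (adjusted p = 0.0144) and stood 0.44 higher in 1-year mutants (adjusted p = 0.105). Its wild-type call was not made without 1-year wild-type replicate 1 (adjusted p = 0.0547).

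Of 29 protein-coding and other named genes of chromosome 11 listed for comparison, 27 were tested. At 1 month 3 rose and 3 fell, and at 1 year 2 rose and 5 fell, with medians of 0.01 and -0.16. The genes were listed with earlier results of these data known, so the counts are no independent evidence. Cuedc1 rose by 1.99 and 2.17 at the 2 ages, and Omg, which encodes a glycoprotein of myelin and neurons, fell by 2.45 and 2.18. Gaa, the lysosomal enzyme that breaks down glycogen, fell by 1.28 and 1.39, and Per1, a component of the circadian clock, by 1.23 and 0.78. Evi2a (1.08) and the chemokine Ccl12 (1.35) rose at 1 month. Stat3, a transcription factor of cytokine signalling, rose by 0.56 at 1 year, when Wfikkn2 (-1.39) and Meox1 (-1.19) fell. Without the arrays of unmatched sex pattern, Evi2a (adjusted p = 0.0665), Stat3 (0.0547) and Meox1 (0.0682) were not called. Probes of these genes were not tied to loci by distance, since gene coordinates of build mm9 were not used here.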

How the data were processed

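Agilent arrays with the single dye Cy3, 1 per mouse and 16 in all, measured RNA. The deposited scanner tables give each spot's intensity after background subtraction, made with Agilent Feature Extraction 11.0.1.1 per the submitters' processing notes. A log2 table deposited by the authors served as an alternative. The software behind it is not given in the sources used here.

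From the tables, outlier spots were dropped, processed intensity was put on the log2 scale relative to each array's 75th percentile, and spots of 1 probe were averaged. A missing value on 2 member probes was left missing. Probes above background (the scanner's mark) on 4 or more arrays, 49238 of 55681, were fitted with limma 3.58.1 (R 4.3.3), with 4 group means over all 16 arrays. Calls used a Benjamini-Hochberg adjusted p under 0.05 over all probes tested, two-sided. The scripts were tested on simulated data. All p-values are limma's, errors of changes are SEs and errors of levels are SDs. A bound ("at least") uses, per array of the dimmer group, the higher of the probe's own signal and the dimmest signal that counts as well above background. The number of arrays limits the precision.

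A locus was represented by its brightest probe on average. Named by rule were loci called by that probe: up to 10 per direction in genotype contrasts, up to 5 in age contrasts, and called members of the gene list. Other probes were chosen after their values were seen. The members and lists were chosen with earlier results of these data known. Replicates are separate mice per the labels. Alternatives were quantile normalization, another background correction, the deposited log2 table, other filters, slide, row, replicate block, sex pattern, locus rules and leaving out each array. Neither probe sequences nor mm9 gene positions were used here.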

Additional observations from a re-analysis of the deposited data

Results flagged for a closer look

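In groups of 4 mice, a single array stood apart from the other 3 by Dixon's ratio in 11 of 88 groups tested, over 22 of the described probes. Chance gives about 1 in 20 for a single group. The 88 groups are not independent, since probes share arrays and loci, so the count cannot be judged by that rate. The cause was not tested. Wild-type 1-month replicate 1 was the highest of its group in 4 probes: A_30_P01030269 of locus 58 at 1.02 (others 0.53 to 0.58), and A_30_P01018710, A_30_P01018956 and A_30_P01026259 of locus 73 at -0.0299, -2.68 and -1.03. That array also had the most member probes above background of all 16, at 631.

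Mutant 1-month replicate 4, with 617 member probes above background, was the highest of its group in A_30_P01018710 at -2.64 (others -3.07 to -3.03) and in A_30_P01032673 at -3.76 (others -4.48 to -4.43). Mutant 1-month replicate 2 was highest in A_30_P01023065 at -3.69 (others -4.29 to -4.24), and mutant 1-month replicate 1 lowest in A_30_P01030983 at -5.61 (others -5.28 to -5.23).

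At 1 year, mutant replicate 1 stood at -0.62 in A_30_P01018348 of locus 39 (others -2.90 to -2.81). Wild-type replicate 4 stood at -0.0618 in A_30_P01027042 of locus 81 (others -0.70 to -0.65) and at -4.73 in A_30_P01030983 (others -4.19 to -4.09).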

How the results depend on the processing

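Of the probes described, 22 were followed through the other fits, each in chosen contrasts only. None of those changes turned direction in the fits that held the probe (A_30_P01022597 did not pass the filter on all 16 arrays). Of the 14 probes called at both ages, 11 (4 of locus 48 and 7 of locus 73) were called at both ages in all 16 fits that left out an array and under all 10 other fits. Loci called at 1 month by highest probe (2) numbered 1 with the other background correction (normexp on median pixel signals, added after seeing the data), 1 without a filter, 1 with loci merged across gaps of 10 kb, 0 with the replicate block, 0 without the arrays of unmatched sex pattern, 0 with that pattern as a covariate, 6 with loci kept apart by strand and 10 with any probe counted. At 1 year (0) they numbered 1 with that background correction, 1 with the covariate, 1 by strand and 4 with any probe. Over both ages (2) they numbered 1 with the replicate block, 1 without those arrays, 1 with the covariate, 1 with gaps merged, 6 by strand and 12 with any probe. Loci called at both ages (0) numbered 1 by strand and 4 with any probe. With age, wild-type loci (4) numbered 12 with any probe. Mutant loci (2) numbered 1 after quantile normalization, 1 with that background correction, 1 in the deposited log2 matrix, 1 without a filter, 1 with array row as a term, 0 with the replicate block, 0 without those arrays, 0 with the covariate and 5 with any probe. Probes called at 1 month (27) numbered 17 with the replicate block, 15 without those arrays and 15 with the covariate.

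Leaving out each array in turn gave ranges of 0 to 4 loci at 1 month, 0 to 1 at 1 year, 1 to 4 over both ages, 0 to 1 for the difference between ages, 3 to 6 and 0 to 2 with age in wild types and mutants, and 0 to 0 at both ages. Probes numbered 13 to 50 at 1 month, 13 to 17 at 1 year, 26 to 47 over both ages and 12 to 15 at both ages. At 1 month they numbered 13 without wild-type replicate 1, 15 without wild-type replicate 2, 16 and 15 without mutant replicates 1 and 2, and 50 without mutant replicate 4, all at that age. The causes were not tested. Deviations of same-numbered mutant and wild-type mice had correlations of -0.49 to 0.06 at 1 month and 0.04 to 0.14 at 1 year. Differently numbered mice were not compared, so whether the replicate numbers mark a shared batch was not tested. With the replicate block, locus 57 had no call at 1 month, and neither A_30_P01019507 over both ages nor A_30_P01023065 with age in wild types was called. Normexp on the mean signal was not run. Dim probes limit what can be seen, since 116 of 736 members were not tested.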
